A study of Mus musculus with 8 samples.

Results

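The 8 complement genes C1qa, C1qb, C1qc, C1ra, C2, C3, C4b and Serping1 were followed through the adult median eminence (ME), a structure at the floor of the hypothalamus that holds tanycytes, glia, vessels and meningeal cells. They were listed by name, and all 8 were found among the 55450 genes of the bulk table and in the single-cell gene list. The question was which cells of the wild-type ME express them, macrophages or microglia against leptomeningeal or glial cells, and how each gene stands in ME that carries an oncogenic Braf in tanycytes. For single cells, the ME of 10 female wild-type C57BL/6 mice, labelled 2 months of age, was pooled into 1 library. The bulk libraries came from single mice on the same strain background, 3 control mice labelled WT and 4 mutant mice labelled Rax::BrafV600E, all with an age label of 2 months. The mutants carry the BrafV600E allele, the V600E form of the kinase Braf, with Rax-CreERT2, so that tamoxifen turns the allele on in cells that express Rax, chiefly tanycytes. The study's methods place the dissection of both groups at 2 months after tamoxifen. They also state that tamoxifen was given to adult mice, so this timing and the age label of 2 months conflict. The true age at dissection is therefore uncertain. Whether the control mice carried the Cre or received tamoxifen, and the sex of the bulk mice, are not given in the sources used here.

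Complement is a set of plasma and tissue proteins that mark particles and cells for clearance. In its classical pathway C1q, built from the chains encoded by C1qa, C1qb and C1qc, recognises a surface and carries the proteases C1r (C1ra) and C1s (C1s1). C1r is activated first, and C1s then cleaves C4 (C4b) and C2 into an enzyme that activates C3. Serping1 encodes the C1 inhibitor, which stops C1r and C1s. In the brain, C1q is known as a product of microglia and other macrophages, and C3 and C4 fragments tag synapses and debris that cells with complement receptors take up.

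The single-cell library held 990 cells and 9846289 UMIs, a UMI being a molecular tag counted once per captured transcript, with between 3284 and 57119 UMIs and a median of 7832 per cell. Cells were clustered without any complement gene, which gave 12 clusters. The tissue named in the labels showed in clusters with markers of tanycytes, pars tuberalis cells, vascular and leptomeningeal cells (VLMCs), glia and neurons. The macrophage- or microglia-like cluster of 81 cells had all 8 pan-macrophage markers at 3 or more times the level of other cells. The VLMC-like cluster of 180 cells had all 7 VLMC markers and was led by Tcf21, Padi4, Itih5, Dcn and Lum, but it also held all 7 endothelial markers and 4 of 5 mural markers. A cluster of 23 cells had 4 of 5 arachnoid barrier markers and was led by Krtdap, Nov, Abcb1a and Slc47a1, the last a gene that the study used to mark pars tuberalis cells. Cluster 2, of 151 cells, was left unnamed because it held tanycyte, ependymal and astrocyte markers together, and the tanycyte-like cluster held 75 cells. The remaining clusters were erythrocyte-like (242 cells), pars tuberalis-like (54), neuron-like (49), oligodendrocyte-like (44), NK- or T-cell-like (31), and a pair of clusters like oligodendrocyte precursor cells (OPCs), of which one was led by cell cycle genes (38) and the other by Enpp6 (22). All cells came from 1 library, so no test between cell types was possible. Levels are a gene's UMIs per 1000000 UMIs of a cluster (CPM) with exact Poisson 95% intervals, and shares of cells have exact Clopper-Pearson 95% intervals. These intervals cover counting error only. Erythrocyte-like cells, which are not known to express these genes, served as the measure of free RNA in the droplets, and their median depth of 7708 UMIs was close to the 7681 of the macrophage- or microglia-like cells.

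The 3 C1q chains were counted almost entirely in the macrophage- or microglia-like cluster. It held 92.8% of the 6211 UMIs of C1qa (95% interval 92.2% to 93.5%), 92.0% of the 5442 UMIs of C1qb and 93.4% of the 4309 UMIs of C1qc. C1ra and Serping1 had the opposite distribution, with 88.8% of 232 UMIs and 85.4% of 940 UMIs in the VLMC-like cluster. C2, with 40 UMIs, and C3, with 49, were divided between these 2 clusters, and C4b, with 78, was the member most spread over the other clusters.

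**Figure D1:**
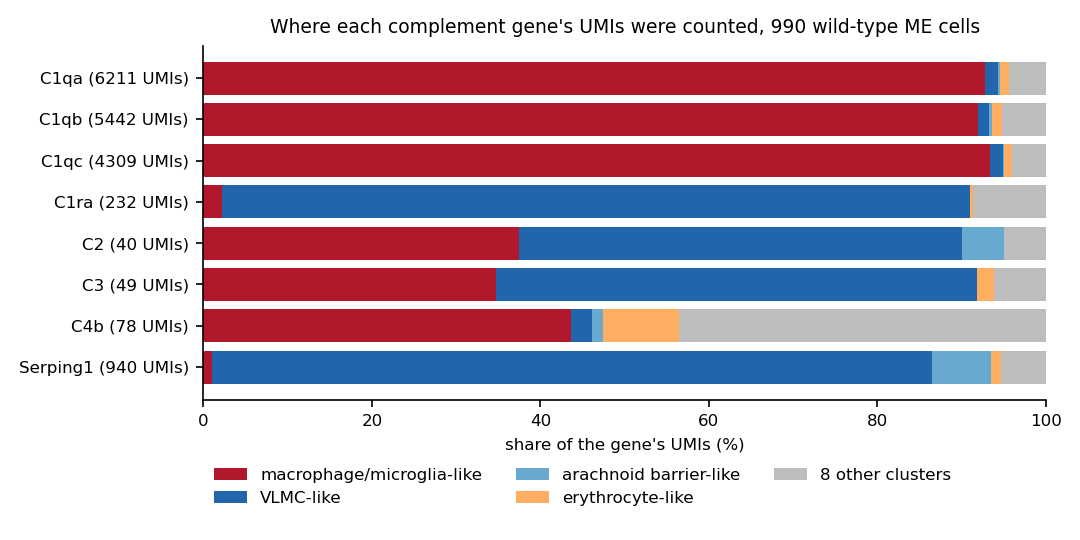
Share of each complement gene's UMIs (x axis, percent) by cluster in the wild-type ME, with the gene's total UMIs after its name. The C1q chains lie over 90% in the macrophage- or microglia-like cluster, C1ra and Serping1 over 85% in the VLMC-like cluster, and C2 and C3 in both.

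The genes of the C1q chains are neighbours on chromosome 4 of GRCm38 and lie on the minus strand, C1qb at chr4:136880129-136886187, C1qc at chr4:136889804-136893065 and C1qa at chr4:136895917-136898803. Because they were counted together in the same cells, the promoter stretches found for them are shown with that of C3, a member with another distribution. Each is the part of the 250 bases before the RefSeq start (GRCm38.p6) that lies in no annotated exon, given 5′ to 3′ on the gene's minus strand. They are chr4:136886201-136886450 for C1qb, chr4:136893066-136893164 for C1qc and chr17:57228137-57228386 for C3. Capitals mark motif matches on either strand, and no matches overlapped. The motifs were GAGGAA, an ETS motif longer than the core GGAA, TTGCNNAA, a C/EBP motif, TTCNNNGAA, a STAT motif, and TATAAA, the TATA box. Matches to the core GGAA alone, which these stretches also hold, were not marked or counted.
C1qb: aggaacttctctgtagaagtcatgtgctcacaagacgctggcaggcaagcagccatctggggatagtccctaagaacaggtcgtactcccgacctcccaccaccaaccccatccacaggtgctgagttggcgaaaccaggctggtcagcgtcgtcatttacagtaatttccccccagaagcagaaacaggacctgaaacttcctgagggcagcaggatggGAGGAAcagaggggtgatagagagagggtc
C1qc: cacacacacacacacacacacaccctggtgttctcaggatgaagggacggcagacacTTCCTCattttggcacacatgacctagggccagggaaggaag
C3: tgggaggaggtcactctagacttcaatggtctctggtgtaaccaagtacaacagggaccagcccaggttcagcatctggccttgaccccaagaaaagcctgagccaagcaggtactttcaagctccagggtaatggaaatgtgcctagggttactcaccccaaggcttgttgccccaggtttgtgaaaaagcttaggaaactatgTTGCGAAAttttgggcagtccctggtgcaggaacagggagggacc
The GAGGAA motif was present once in the C1qb stretch and once in the C1qc stretch. Of 32851 promoters in the same table, 23.3% held that motif in the window used for C1qb and C3 and 9.91% in the shorter window used for C1qc. The C3 stretch held 1 C/EBP motif, which 9.56% of promoters held in that window. STAT motifs and TATA boxes had no match in these windows. C1ra had only a short stretch outside exons, and C1qa, C2, C4b and Serping1 had no entry.

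Within the macrophage- or microglia-like cluster C1qa reached 8498 CPM (8280 to 8720), C1qb 7376 (7173 to 7583) and C1qc 5933 (5751 to 6119). The next cluster in order was the pars tuberalis-like one for each of the chains, with 90.5 CPM for C1qa, 64.0 for C1qb and 57.4 for C1qc. C1qa was thus 93.9 times higher in the macrophage- or microglia-like cluster than in the next (69.2 to 131). Outside this cluster the levels of the chains ran from 18.6 to 90.5 CPM in every cluster. Below the first place, most neighbouring clusters had overlapping intervals, as the plot of levels by cluster shows.

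Detection followed the same line. All 3 chains were detected together in 77 of 81 macrophage- or microglia-like cells, 95.1% (87.8% to 98.6%), and none of them in 1 cell. Their summed share of the UMIs of a cell had a median of 2.12% and a maximum of 3.65% in this cluster, and a median of 0% and a maximum of 0.0460% among erythrocyte-like cells. In single genes, C1qa was detected in 97.5% of the macrophage- or microglia-like cells, 31.1% of the VLMC-like cells and 24.4% of the erythrocyte-like cells. When every cell was thinned to 3000 UMIs, these shares were 96.3%, 20.6% and 9.50%. A single cell of the cluster held 423 of its 425 UMIs of the mast cell markers Cpa3, Tpsb2, Mcpt4 and Cma1. It had 1 UMI of C1qb and 0 of C1qa, C1qc and the macrophage protease gene Ctss, and without it C1qa stood at 8554 CPM.

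Outside the macrophage- or microglia-like cluster, at least 1 C1q chain was detected in 59.3% of 909 cells. These include the 242 erythrocyte-like cells, of which 46.7% had at least 1 chain. Depth, which raises detection, differed among these cells, with median UMIs from 5330 in the pars tuberalis-like cluster to 31420 in the neuron-like cluster. Pooled over all cells outside the macrophage- or microglia-like cluster, the chains had proportions close to those within it. C1qb had 0.982 UMIs per UMI of C1qa in all other cells and 0.868 in the macrophage- or microglia-like cluster, and C1qc had 0.637 against 0.698. C1qa had 0.947 UMIs per UMI of Ctss in all other cells and 0.885 in the cluster. Single parts varied more. C1qc per C1qa was 0.517 in cluster 2 and the tanycyte-like cluster together, 0.591 in erythrocyte-like cells and 0.711 in VLMC-like cells. For C1qb per C1qa these were 0.957, 1.03 and 0.811, and for C1qa per Ctss 0.983, 0.971 and 1.268. The VLMC-like cells were higher than the erythrocyte-like cells in C1qa, 72.5 against 31.4 CPM, 2.31 times (1.66 to 3.22), and 2 of these 180 cells held 71 of their 227 C1q UMIs. In cluster 2 and the tanycyte-like cluster together, C1qa had 52.1 CPM, 1.66 times the erythrocyte-like level (1.22 to 2.28).

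**Figure D2:**
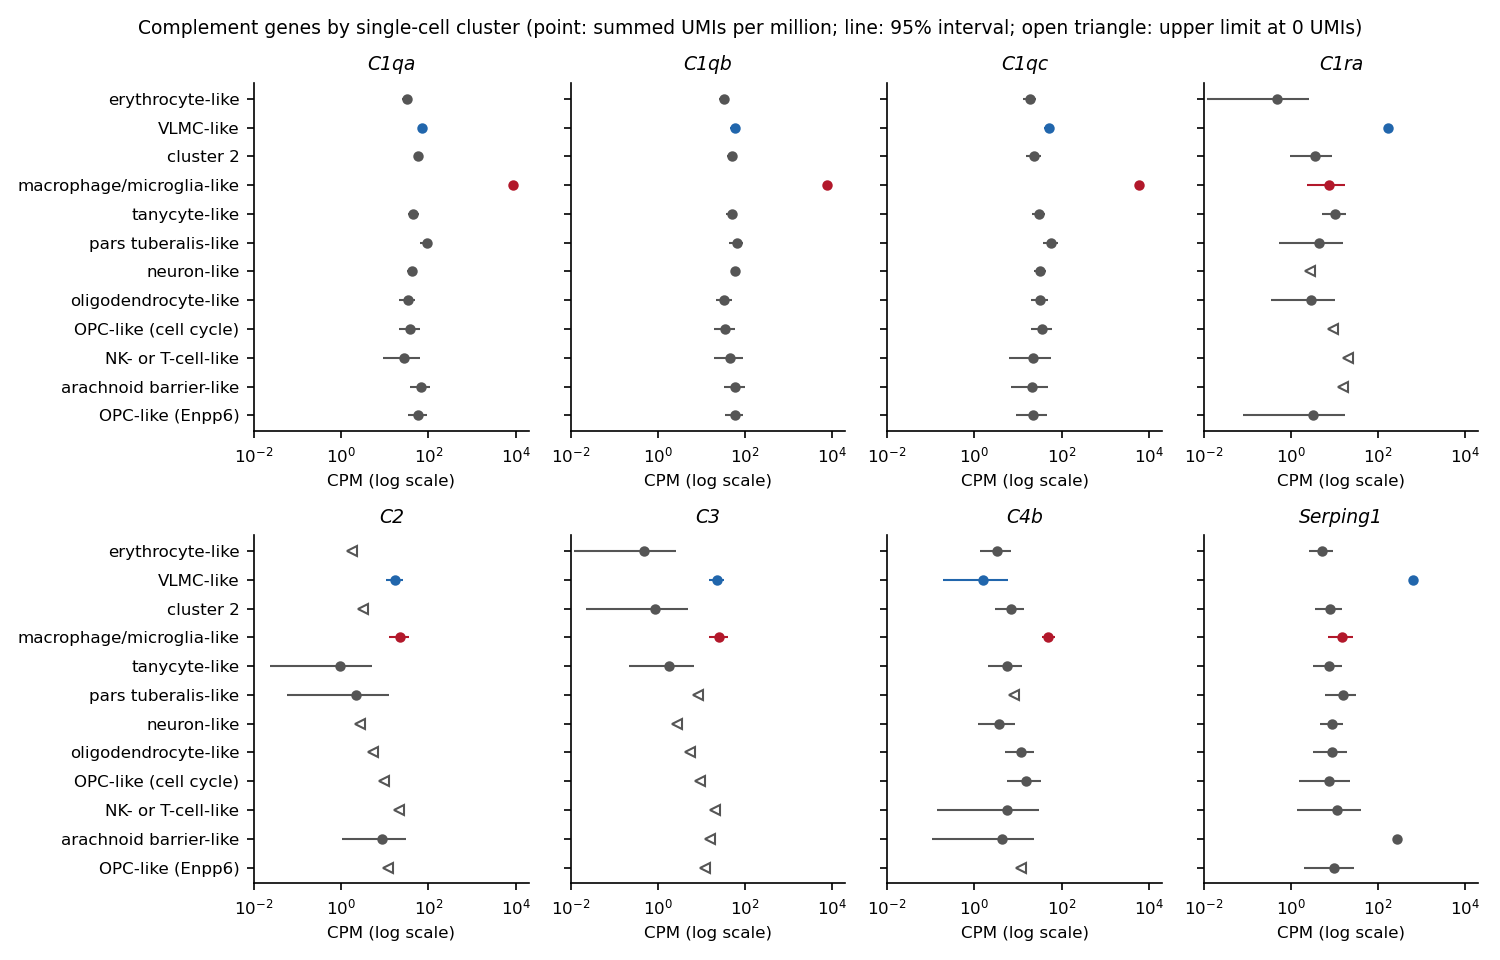
Level of each complement gene (x axis, CPM on a log scale) in the 12 single-cell clusters (y axis). Points are levels, lines exact Poisson 95% intervals and open triangles the upper limit where no UMI was counted, with the macrophage- or microglia-like cluster in red and the VLMC-like cluster in blue. The C1q chains stand at 5933 to 8498 CPM in the former and at 18.6 to 90.5 CPM in the others, whereas C1ra and Serping1 stand highest in the latter.

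Clustering the 81 cells again without complement genes gave 51 cells with more border macrophage markers and 30 cells with more microglia markers. In the former, Pf4 and Mrc1, genes of perivascular and meningeal macrophages, were at 633 and 157 CPM, against 229 and 86.5 in the latter. In the latter, P2ry12 and Tmem119, genes of microglia, were at 891 and 735 CPM, against 293 and 244. C1qa hardly differed between them, with 8559 CPM (8290 to 8835) and 8379 CPM (8010 to 8761), and the intervals of C1qb overlapped as well. C1qc was lower in the cells with more border macrophage markers, 5670 CPM (5451 to 5895) against 6442 CPM (6119 to 6778). Of the 17 UMIs of C3 in the cluster, 16 were in the cells with more border macrophage markers, as were 9 of its 10 UMIs of Serping1.

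C1ra, at chr6:124512405-124523443, encodes the protease that C1q activates first. It reached 166 CPM (144 to 190) in the VLMC-like cluster and 10.2 CPM (5.07 to 18.2) in the next in order, the tanycyte-like cluster, a ratio of 16.3 (8.94 to 33.2). The macrophage- or microglia-like cluster had 7.37 CPM (5 UMIs), the erythrocyte-like cluster 0.476 CPM (1 UMI), and 4 clusters had 0 UMIs. C1ra was detected in 57.8% of VLMC-like cells and 0.413% of erythrocyte-like cells, at median depths of 6527 and 7708 UMIs, and in 39.4% and 0.413% after thinning. C1s1, the partner protease of C1ra, had 170.8 CPM in the VLMC-like cluster and 89.8% of its 236 UMIs there. Either of these protease genes was detected in 76.1% of the VLMC-like cells and both in 37.2%.

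Serping1, at chr2:84765387-84775444, was the member with the highest level in the VLMC-like cluster. There it had 647 CPM (603 to 693), and the arachnoid barrier-like cluster followed with 277 CPM (214 to 352), a ratio of 2.34 (1.82 to 3.05). All other clusters had 5.23 to 15.4 CPM, and the interval of the erythrocyte-like cluster (2.61 to 9.36 CPM) overlapped that of the tanycyte-like cluster (3.19 to 14.6). Serping1 was detected in 92.8% of VLMC-like cells, 65.2% of arachnoid barrier-like cells and 4.55% of erythrocyte-like cells.

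The VLMC-like cluster was clustered again in the same way, since it also held endothelial and mural markers. Of the 3 sub-clusters, one of 50 cells had 0 UMIs of the endothelial genes Cldn5, Pecam1, Kdr and Plvap, 2 of Cdh5, 1 each of Flt1 and Tek, and 3 of the pericyte gene Rgs5. It had the highest Serping1 level, 1011 CPM (908 to 1123), against 577 and 440 CPM in the others, and 196.5 CPM of C1ra (153 to 249), against 175 (137 to 219) and 135 (104 to 173). Serping1 was thus highest where endothelial markers were near 0, whereas the intervals of C1ra overlapped. C3 had 21 of its 28 UMIs in the sub-cluster of 69 cells that had 165 CPM of Flt1 and 157 CPM of Rgs5. It was detected in only 7 VLMC-like cells, with 17 of the 28 UMIs in 2 of them, so its placement rests on few cells.

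C2, at chr17:34862604-34898265, provides the protease of the C3-activating enzyme, and C3, at chr17:57203970-57228136, is the protein on which all complement routes converge. The level of C2 was 22.1 CPM (12.4 to 36.5) for macrophage- or microglia-like cells and 16.9 CPM (10.5 to 25.9) for VLMC-like cells, a ratio of 1.31 (0.627 to 2.66). C3 had 25.1 CPM (14.6 to 40.1) and 22.6 CPM (15.0 to 32.6), a ratio of 1.11 (0.571 to 2.102). Neither gene could be placed higher in one source than in the other at this depth, and 7 of the 12 clusters had 0 UMIs of C2, as 7 had of C3. C3 was concentrated in few cells. It was detected in 7 of 180 VLMC-like cells, with 17 of 28 UMIs in 2 of them, and in 7 of 81 macrophage- or microglia-like cells, with 11 of 17 UMIs in 2 of them. After thinning to 3000 UMIs, C2 and C3 had 10 and 22 UMIs left and both stood highest in the VLMC-like cluster.

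C4b, at chr17:34728380-34743882, encodes complement C4, which C1s cleaves. Macrophage- or microglia-like cells had the highest level, 50.1 CPM (34.7 to 70.0), which was 3.28 times (1.36 to 9.57) the level of the next, the OPC-like cluster led by cell cycle genes. That cluster had 15.3 CPM (5.60 to 33.2), the oligodendrocyte-like cluster 11.7 (5.03 to 23.0), cluster 2 had 7.002 (3.02 to 13.8) and the tanycyte-like cluster 5.54 (2.03 to 12.1). The erythrocyte-like cluster had 3.33 CPM (1.34 to 6.86), below the level of each of these glial clusters. Their intervals overlapped that of the erythrocyte-like cluster, but such an overlap cannot show that a level is at background. Cluster 2 and the tanycyte-like cluster together had 1.89 times the erythrocyte-like level (0.714 to 5.53). The VLMC-like cluster had 2 UMIs of C4b, or 1.61 CPM. The OPC-like cluster led by Enpp6 had 0 UMIs, which allows up to 11.8 CPM, while the one led by cell cycle genes had 6. C4b was detected in 27.2% of macrophage- or microglia-like cells and 2.89% of erythrocyte-like cells.

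Of the 43 other complement genes in the single-cell gene list, 12 had at least 100 UMIs, 20 had 1 to 99 and 11 had 0, which allows up to 0.305 CPM over the library. The receptor genes among the 12 were all highest in the macrophage- or microglia-like cluster, the C3a receptor gene C3ar1 with 420 CPM, the C5a receptor gene C5ar1 with 472, and Itgam and Itgb2, the chains of complement receptor 3, with 224 and 268. C1s1 and the scavenger collectin Colec12, with 607 CPM, stood highest in the VLMC-like cluster. Membrane and soluble regulators were spread more widely. Cd55 (83.9 CPM) and Cr1l (113 CPM), which break down or block the C3-activating enzymes, were highest in the arachnoid barrier-like cluster. Cd59a (53.0 CPM), which blocks the membrane attack complex, and the chaperone Clu (371 CPM) were highest in the pars tuberalis-like cluster, with 51.6 and 362 CPM in the neuron-like cluster close behind. Susd4 (189 CPM) was highest in the OPC-like cluster led by Enpp6.

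Outside the complement lists, the genes whose levels over the 12 clusters were most like those of the members were found by Pearson correlation of log2(CPM + 1) among genes with at least 50 UMIs. For C1qa, C1qb and C1qc the first was Lyz2, which encodes lysozyme (r = 0.976, 0.976 and 0.981). It was followed by Lrrc25 and Aif1 for C1qa, by Fcgr4 and Aif1 for C1qb and by Fcgr4 and Lrrc25 for C1qc. Those of C1ra were Scara5, Emcn and Adamtsl2 (r = 0.915, 0.891 and 0.889), and those of Serping1 were Dcn, Thbd and Mgp (r = 0.974, 0.969 and 0.967). C4b had weaker likeness, to Pf4, Pnpla7 and Oasl1 (r = 0.771, 0.728 and 0.725). The clusters share 1 library and differ in depth, so these values are descriptions.

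In the bulk ME, the 7 libraries held between 4928456 and 13816596 counts and between 17874 and 40852 genes with a count, with controls at 17874 to 34942 genes and mutants at 25910 to 40852. Counts came from a full-length, PCR-amplified protocol without UMIs, so a count is not a molecule. Values are TMM-scaled CPM, and mutants were compared with controls by edgeR's quasi-likelihood test over 20466 genes with Benjamini-Hochberg adjustment. No gene passed an adjusted p of 0.05 in that test (0%), so none of the 8 members did. Of the members, 7 had lower and 1 had higher means in mutants, with a median log2 fold change of -1.14 against 0.13 over all genes tested. By unadjusted p below 0.05, 4 members were lower and 1 was higher, where 3.89% and 4.23% of all genes were. In 3 members every mutant library was below every control library and in 1 every mutant was above, which held for 3.18% and 5.83% of all genes. With DESeq2 on the same genes, C3 and Serping1 passed (adjusted p = 0.00638 and 0.0106), where 0.601% of genes passed as lower in mutants. CPM values are relative to the other counts of a library. In bulk tissue, fewer cells of a type, less RNA per cell and more RNA from other cells therefore cannot be told apart. The paper describes the mutant tissue as tumour and reports that the ME of such mutants was larger in width and height than in controls. The part of this enlargement in the lower values was not tested.

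**Figure D3:**
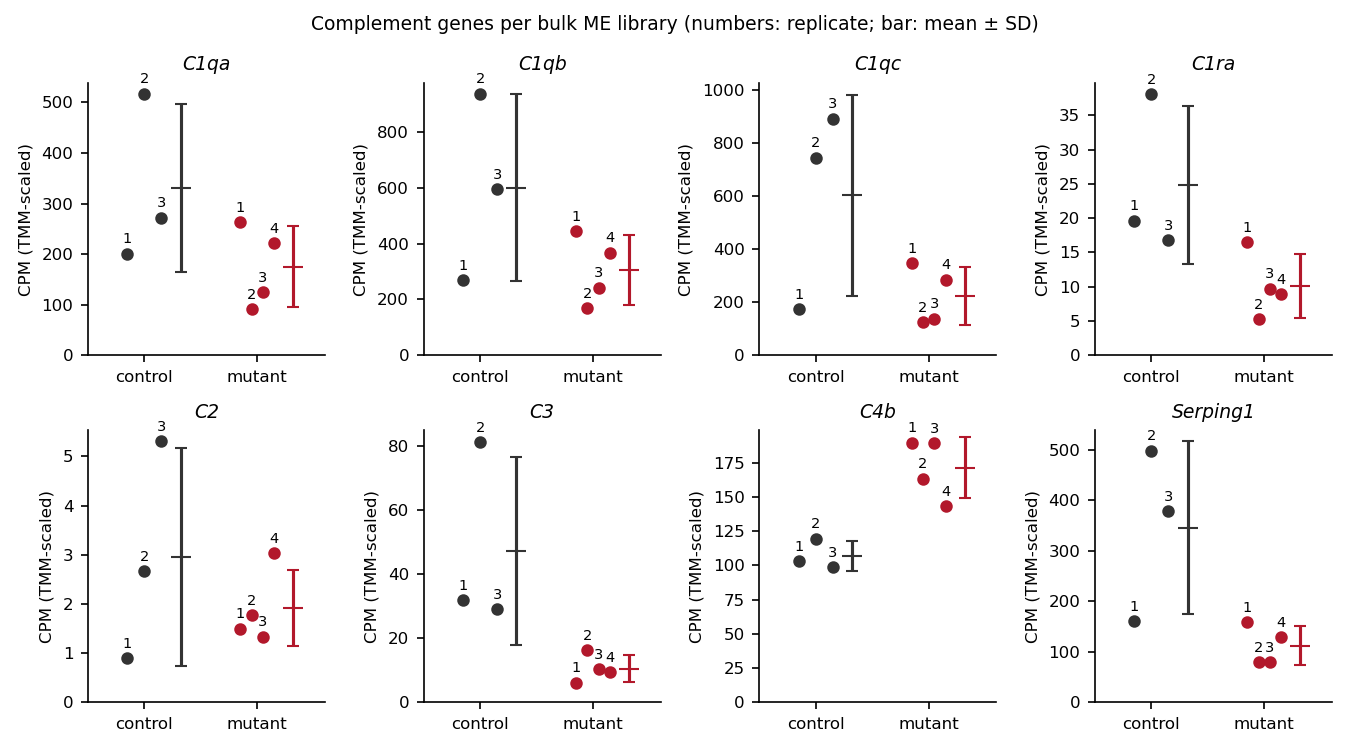
TMM-scaled CPM (y axis) of each complement gene in the 3 control and 4 mutant bulk libraries, numbered by replicate, with the mean ± SD of each group. C3, Serping1 and C1ra lie below all controls in every mutant, C4b above all controls, and the other members overlap.

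C3 had the largest difference. It was at 31.9, 81.2 and 29.0 CPM in controls 1 to 3 and at 6.20, 16.3, 10.4 and 9.47 CPM in mutants 1 to 4. The highest mutant was well below the lowest control. The mean was 47.4 ± 29.3 CPM (SD, n = 3) in controls and 10.6 ± 4.19 CPM (SD, n = 4) in mutants, a fold of 4.47. The log2 fold change was -2.16 (SE 0.47) by edgeR, with an unadjusted p of 0.000896, rank 59 of 20466 genes, and an adjusted p of 0.310. Without the filter on low counts, when 47682 genes were tested, edgeR's adjusted p was 0.00181.

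Serping1 was at 161, 498 and 378 CPM in the controls and at 159, 80.1, 80.2 and 129 CPM in the mutants. Control 1 and mutant 1 nearly touched, so that only a narrow gap kept the groups apart, whereas controls 2 and 3 stood far above. The log2 fold change was -1.63 (SE 0.41) by edgeR, with an unadjusted p of 0.00239 and an adjusted p of 0.374, or 0.00855 without the filter on low counts. With the number of detected genes as a covariate, a setting chosen after seeing the data, the log2 fold change was -0.815. For C1ra, controls had 19.7, 38.1 and 16.8 CPM and mutants 16.5, 5.21, 9.69 and 8.94 CPM. Here control 3 and mutant 1 nearly touched, and the log2 fold change was -1.30 (SE 0.49, edgeR adjusted p = 0.526).

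Among the C1q chains, C1qa was at 201, 517 and 272 CPM in controls and at 263, 91.3, 125 and 221 CPM in mutants. C1qb was at 268, 937 and 595 CPM in controls and at 444, 168, 242 and 367 CPM in mutants. For C1qc the controls had 174, 744 and 892 CPM and the mutants 347, 123, 138 and 284 CPM. In each chain control 1 was the lowest control and lay among the mutants, and mutants 2 and 3 were the lowest libraries. The log2 fold changes were -0.92 (SE 0.43) for C1qa, -0.97 (SE 0.45) for C1qb and -1.43 (SE 0.54) for C1qc, with edgeR adjusted p of 0.633, 0.626 and 0.526. Without the filter on low counts the adjusted p of C1qc by edgeR was 0.0436. The number of genes detected moved with these genes, being lowest in controls 2 and 3, and with it as a covariate their log2 fold changes were -0.40, -0.18 and -0.04.

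C2 was at 0.904, 2.67 and 5.31 CPM in controls and at 1.499, 1.77, 1.34 and 3.04 CPM in mutants, from 8 to 62 counts. The groups overlapped widely (log2 fold change -0.63, SE 0.96), and the direction turned without control 3 (0.10) or with the number of detected genes as a covariate (0.55).

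C4b was the only member with a higher mean in mutants. It was at 103, 119.5 and 98.7 CPM in controls and at 189.6, 163, 189 and 143 CPM in mutants, so that each mutant was above each control. The means were 107 ± 10.95 CPM (SD, n = 3) and 171 ± 22.4 CPM (SD, n = 4), a fold of 1.599. The log2 fold change was 0.68 (SE 0.26), with an edgeR p of 0.0243 and an adjusted p of 0.530. It lay between 0.63 and 0.81 under every one of 16 other settings, none of which called it. Per length of the annotated exons, the mean level of C4b in controls (18.8 RPKM) was below those of C1qa, C1qb, C1qc and Serping1 (148.7 to 552 RPKM) and above those of C1ra, C2 and C3 (0.764 to 9.21 RPKM).

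Some of these genes have near copies that could take or give reads. C1ra shares 50.8% of its 50-base stretches with transcripts of other genes, chiefly C1rb, which had 0 counts in all controls and 0 to 5 in mutants. C4b shares 34.6% with C4a, which had 1 to 3 counts in controls and 18 to 26 in mutants, against 801 to 1898 counts of C4b. C2 shares 38.7% with Gm20547, a gene that also shares 73.0% of the stretches of Cfb. C1qa, C1qb, C1qc, C3 and Serping1 share none. How shared reads were counted is not given in the sources used here.

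**Figure D4:**
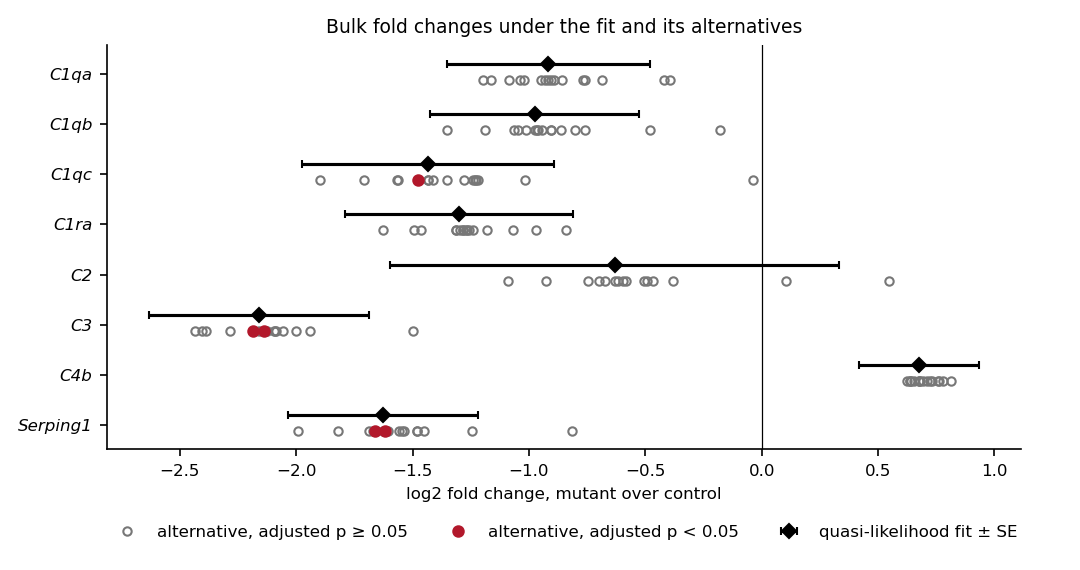
Log2 fold change of mutants over controls (x axis) for each complement gene by edgeR's quasi-likelihood test (diamonds, with SE) and under 16 alternatives (circles, red where the adjusted p was below 0.05). C4b stays between 0.63 and 0.81, and C2 is the only member that crosses 0.

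Cell type markers were set beside the members, and some of their sums separated the groups whereas others overlapped. The summed level of the 8 macrophage or microglia markers was 966 to 3034 CPM in controls and 641 to 1441 CPM in mutants. All 8 had lower fitted levels in mutants, 3 of them at an unadjusted p below 0.05 by edgeR, 0 were called, and 0 were at 0 in any library. Over all genes tested, 3.89% were lower and 4.23% higher at that p. Of 8 markers of microglia, summing to 444 to 1358 CPM against 248 to 562 CPM, 7 were lower in the same sense, 6 at an unadjusted p below 0.05. C1qa, C1qb and C1qc together had 0.666 to 0.901 CPM per CPM of the macrophage or microglia markers in controls and 0.597 to 0.819 in mutants. The groups overlapped in this ratio, but the summed chains overlapped before division too, with 643 to 2197 CPM in controls and 383 to 1054 CPM in mutants. The overlap of the ratio therefore cannot show whether the chains followed the markers.

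For VLMCs, the 7 markers summed to 1280 to 3053 CPM in controls and 654 to 1118 CPM in mutants, without overlap. Of these markers 5 had lower means and 2 higher, 3 were lower at an unadjusted p below 0.05, and 0 were at 0 in any library. Serping1 had 0.124 to 0.165 CPM per CPM of VLMC markers in controls and 0.104 to 0.197 in mutants, and C1ra had 0.00549 to 0.0154 against 0.00677 to 0.0147. The groups overlapped for each gene. Before division only narrow gaps kept the groups apart, 161 against 159 CPM for Serping1 and 16.8 against 16.5 CPM for C1ra. The overlap of these ratios therefore cannot show whether the genes followed the markers. C3 had 0.00950 to 0.0269 in controls and 0.00554 to 0.0211 in mutants, which overlapped as well. However, 34.7% of its single-cell UMIs were in the macrophage- or microglia-like cluster, a source that this ratio leaves out. Most of its UMIs in the VLMC-like cluster were in few cells of the sub-cluster with Flt1 and Rgs5, genes that are not among the VLMC markers. The sums of endothelial markers (6 of 7 with lower means, 253 to 421 CPM against 81.9 to 147 CPM) and border macrophage markers (7 of 8, 138 to 220 CPM against 46.0 to 77.2 CPM) were lower in every mutant library. So was the sum of oligodendrocyte markers, with 1214 to 2867 CPM against 444.5 to 1179 CPM and 6 of 6 lower at an unadjusted p below 0.05 by edgeR. The sum of OPC markers (6 of 6 with higher means, 71.6 to 106.5 CPM against 160 to 535 CPM) was higher. Taken singly, 2 of 7 endothelial, 0 of 8 border macrophage and 1 of 6 oligodendrocyte markers were below all controls in every mutant, as were 3.18% of all genes. Of the OPC markers, 4 of 6 were above all controls in every mutant, as were 5.83% of all genes. Of the border macrophage markers Cd163, Lyve1 and Clec10a were at 0 in some library, and of the OPC markers Cspg4 and C1ql1. Among the controls, control 3 had the highest VLMC sum, 3053 CPM, and the lowest C3 and C1ra, 29.0 and 16.8 CPM. Control 2, with a VLMC sum of 3023 CPM, had the highest C3 and C1ra, 81.2 and 38.1 CPM. Control 1 had the lowest VLMC sum, 1280 CPM, and the lowest Serping1, 161 CPM. The part of the marker sums in the results for the members was not tested.

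Astrocyte markers were set beside C4b, although no single-cell cluster was named for astrocytes. In single cells, C4b was highest in the macrophage- or microglia-like cluster, then in the OPC-like cluster led by cell cycle genes, with 6 UMIs. The other OPC-like cluster, led by Enpp6, had 0 UMIs of C4b. In bulk, the OPC marker sum was higher in every mutant, whereas the macrophage or microglia marker sum overlapped. Which cells gave the C4b of the bulk libraries was not tested. Of the 7 astrocyte markers, 6 had higher means in mutants, 4 of them at an unadjusted p below 0.05 by edgeR. In 4 of the 7, every mutant library was above every control library, which held for 5.83% of all genes. Their sum did not show this, with 1256 to 4597 CPM in controls and 1700 to 3979 CPM in mutants. Control 1 had the lowest sum and the others of its group the highest, while C4b varied little among the controls. C4b per CPM of these markers was 0.0215 to 0.0822 in controls and 0.0456 to 0.0960 in mutants. Per count of C1qa, C4b was 0.231 to 0.513 in controls and 0.648 to 1.79 in mutants, without overlap. C4b separated the groups before division too, and C1qa had a lower mean in mutants, so this ratio is no further support. Per count of Serping1 it was 0.240 to 0.642 in controls and 1.11 to 2.36 in mutants. That last separation was fixed in advance, since every mutant was above every control in C4b and below every control in Serping1.

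**Figure D5:**
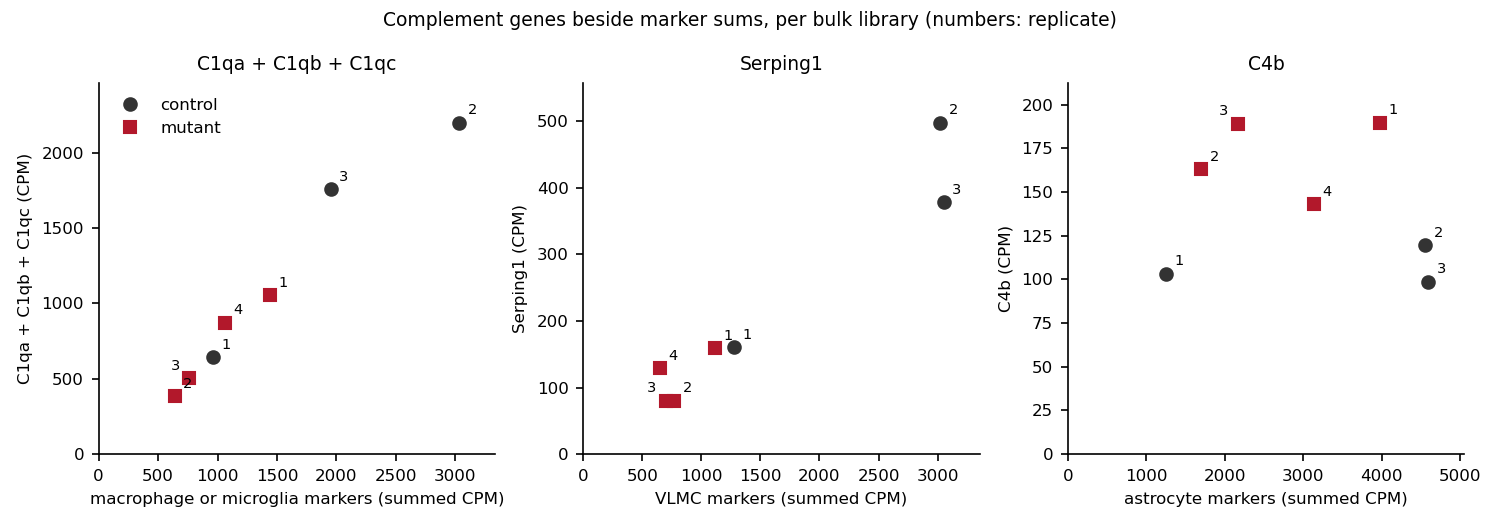
Summed C1q chains against macrophage or microglia markers, Serping1 against VLMC markers and C4b against astrocyte markers (all axes TMM-scaled CPM) in the 7 bulk libraries, numbered by replicate. In the first 2 panels control 1 lies beside the mutants, and in the third every mutant lies above every control.

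Of the 44 other complement genes, 33 passed the filter on low counts, 18 with lower and 15 with higher means in mutants and a median log2 fold change of -0.39. By edgeR, 0 were called, while 7 were lower and 1 was higher at an unadjusted p below 0.05. Of all 20466 genes tested, 8859 had lower and 11607 higher fitted levels, and 3.89% were lower and 4.23% higher at that p. By list, 3 of the 6 initiation genes tested had lower means, 1 of 1 alternative pathway gene, 2 of 6 terminal pathway genes, 7 of 12 regulators and 5 of 8 receptors. C1s1, the partner of C1ra and likewise highest in the VLMC-like cluster, was at 12.4, 36.9 and 9.50 CPM in controls and at 7.19, 6.25, 6.68 and 4.65 CPM in mutants (log2 fold change -1.66, SE 0.54).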

How the data were processed

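Single-cell and bulk RNAseq of the mouse ME were re-analysed from the processed files. The authors deposited raw counts for both: UMI counts per gene and cell from Cell Ranger (2.1 in the paper, 2.0.1 in the submitters' processing notes, which also name mm10, GRCm38 and DESeq2) on an Ensembl reference, and read counts per Ensembl gene for 3 control and 4 mutant libraries. The aligner and counter of the bulk reads are not given in the sources used here. A UMI is a molecule, whereas bulk reads also carry PCR duplicates. Bulk IDs were matched to symbols through the single-cell gene list (27645 of 55450) and GENCODE M21. The members and all lists were chosen with earlier results of these data known.

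For clusters, UMI counts without complement genes went through Seurat 5.3.0 at resolution 0.8 on 20 components, from log-normalized values (scale 10000) of variable genes (dispersion over 0.5, mean between 0.02 and 8). A cluster took a name from 3 or more markers that reached 3 times their CPM elsewhere. With an expected rate of 0.06, Scrublet (scanpy 1.11.5) called 3 of 990 cells (0.303%) as doublets, too few to be relied on, and they were kept. Droplet barcodes did not repeat within the single library. Mutants were set against controls by edgeR 4.0.16 under R 4.3.3 (filter by group size, TMM, quasi-likelihood test, adjusted p below 0.05), a step tested on simulated data. The design had no covariate. P-values measure the spread between single mice. Within groups, libraries differed by more than sampling noise.

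Named were the 8 members, other complement genes called in bulk or with at least 100 UMIs, and the 3 genes most alike. C1s1 and C4a in bulk were named after their values were seen. Some results on other complement genes are not reported here. Alternatives were DESeq2 1.42.0, limma-voom (limma 3.58.1), other scalings, filters, a replicate block and left-out libraries in bulk, and other resolutions (0.4, 1.2), components (10, 30), doublets removed, thinning to 3000 UMIs and log-normalized means in cells. The following were chosen after seeing the data: the newer quasi-likelihood method of edgeR, the number of detected genes as a covariate, leaving out the cell with mast cell markers, and the VLMC sub-clusters (10 components). Promoters are from RefSeq (4 of 8 members matched). Python 3.11.15, scipy 1.17.1, numpy 2.4.6, pandas 2.3.3 and matplotlib 3.10.9 were used. Of the bulk table, 0 columns were left unused.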

Additional observations from a re-analysis of the deposited data

Results flagged for a closer look

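Among 42 sets of values over the 4 mutant libraries, 1 held a library far from the others, and chance flags about 1 in 20. It was C1ra per CPM of VLMC markers, which was 0.00677 in mutant 2 and 0.0137 to 0.0147 in the other mutants.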

How the results depend on the processing

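In bulk, 14 of 16 alternatives called 0 members. DESeq2 called 301 genes, among them 2 members (C3 and Serping1) and 3 complement genes in all, where edgeR called 0, and edgeR without the filter on low counts called 240 genes, among them 3 members (C1qc, C3 and Serping1) and 4 complement genes. Leaving out each library in turn, called members ranged from 0 to 0. Over 127 log2 fold changes of members under the alternatives, 120 kept their direction uncalled, 5 kept it and were called, and 2 reversed. Those were C2 at 0.55 with the number of detected genes as a covariate and at 0.10 without control 3, against a range from -1.09 to 0.10 over all left-out libraries. With that covariate C1qa was at -0.40, C1qb at -0.18, C1qc at -0.04, C1ra at -0.97, Serping1 at -0.815, C3 at -2.28 and C4b at 0.73, and the cause was not tested. Without control 2, C1qa was at -0.42 and C3 at -1.499. Scaling by library sizes alone moved the median of all genes from 0.13 to 0.25 and kept all 8 directions. Replicate numbers did not pair the samples (correlations of same-numbered deviations -0.454, -0.008 and -0.227), and the replicate block called 0 members, with log2 fold changes from -2.06 (C3) to 0.76 (C4b).

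In single cells, 63 of 74 values stayed within the interval or 1.5 times. At resolution 1.2 the VLMC-like cells were divided, and a cluster of 124 of them held 56.5% of C1ra, 46.2% of Serping1 and 32.5% of C2, and was highest for 1 member. Thinned to 3000 UMIs, the macrophage- or microglia-like cluster held 92.1% of C1qa, 94.3% of C1qc, 10.0% of C2 and 58.8% of C4b. The VLMC-like cluster then held 90.0% of Serping1 and of C2 and was highest for 4 members. Depth limits C2, C3 and C4b most, with 40, 49 and 78 UMIs.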

Other observations

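C1qc and C1qa did not keep the same proportion across the bulk libraries. Control 3 had 3.28 counts of C1qc per count of C1qa, control 1 had 0.865, control 2 had 1.44 and the mutants had 1.103 to 1.35. C1qb per count of C1qa was 1.33 to 2.19 in controls and 1.66 to 1.94 in mutants. In the single-cell library C1qc had 0.698 UMIs per UMI of C1qa in the macrophage- or microglia-like cluster. Control 3 was also the library with the fewest genes detected, 17874.

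C4b was at 7.92 CPM over all single cells and at a mean of 107 CPM in the control bulk libraries, whereas C1qa was at 631 CPM over all single cells and at 330.1 CPM in the controls. Counts of the full-length bulk protocol also rise with transcript length, and the annotated exons span 5695 bases for C4b and 1040 for C1qa. Per length, the control means were 18.8 RPKM for C4b and 317.5 RPKM for C1qa. The protocols differ in which part of a transcript is read, the tissue was dissociated in one and not in the other, and the mice differ. These values were therefore set side by side without a test.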
